A study of Mus musculus with 7 samples.

Results

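CTCF ChIP-exo 5.0 peaks were examined at 7 mouse genes of tumour suppression and telomerase, which were Cdkn2a, Cdkn2b, Trp53, Wrap53, Rb1, Brca1 and Tert. A site was a peak pair, that is a forward-strand peak with a reverse-strand peak 10 to 80 bp downstream of it in the same library, and pairs of different libraries with centres within 50 bp were merged. Sites were taken where the centre lay inside one of these genes or within 20 kb of it, by RefSeq positions on mm10. This gave 33 sites of the 88402 in all libraries together. The 7 genes form 5 loci, since Cdkn2a lies next to Cdkn2b and Trp53 next to Wrap53.

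The data were 7 libraries, 1 each of brain, lung, kidney and liver, and 1 each of 2,700,000, 270,000 and 27,000 liver cells, made to show whether the assay detects CTCF in animal organs and in few cells. All mice were wildtype in the labels, and the study's methods give adult males 16 weeks of age and 100 mg of tissue. By those methods liver cell numbers were estimated from the wet weight of tissue. Liver and liver tissue below mean the library labelled liver without a cell number. The labels give 0.3% formaldehyde, the methods 1%, and the labels name a CTCF antibody but an IgG in the extraction text. With 1 library per condition differences between libraries could not be set against replicates, and p-values are left out. The libraries held 527038 to 1635582 tags in the 4 organs, 6592538 tags with 2,700,000 liver cells, 640635 with 270,000 and 35594 with 27,000. A tag marks where the exonuclease stopped on a strand, and the deposited lists hold only peaks of at least 2 tags. A site without tags is therefore a site where no such peak was listed. Intervals are at 95%, exact Poisson for tags and Wilson for shares, and cover counting error only.

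CTCF is a zinc finger protein that binds a long sequence motif at insulators, at the borders of chromatin domains and at many promoters. In ChIP-exo a 5′ to 3′ exonuclease digests each strand up to the crosslinked protein, so that forward stops gather on one side of the bound motif and reverse stops on the other. The genes here act in the main barriers to unlimited growth. Cdkn2a encodes p16INK4a and p19ARF from separate first exons, of which the upstream one is that of p19ARF, and Cdkn2b encodes p15INK4b. The INK4 proteins inhibit the cyclin D kinases that phosphorylate the retinoblastoma protein, the product of Rb1, and ARF inhibits Mdm2, which degrades p53, the product of Trp53. Wrap53 lies head to head with Trp53 on the opposite strand and encodes a protein that brings telomerase to Cajal bodies. Tert is the catalytic subunit of telomerase, and Brca1 acts in homologous recombination.

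RefSeq promoter sequences (GRCm38.p6, the build of mm10) were found for 6 of the 7 genes. Of their 8 annotated starts, 3 had a CTCF site centred within the 300 bases around the start. The same share over all mouse promoter windows was not counted, so this count is a description only. Those 3 windows are shown because the values below refer to them. Each runs 5′ to 3′ in the direction of the gene, from 250 bases before the start. Capitals mark matches to AGGNGGC on either strand, so that GCCNCCT is also marked. This word was chosen after the sequences had been seen. The downstream start of Wrap53 (chr11:69579200-69579499, minus strand), the downstream start of Cdkn2a (chr4:89282143-89282442, minus strand) and the start of Tert (chr13:73626661-73626960, plus strand) read as follows.
Wrap53: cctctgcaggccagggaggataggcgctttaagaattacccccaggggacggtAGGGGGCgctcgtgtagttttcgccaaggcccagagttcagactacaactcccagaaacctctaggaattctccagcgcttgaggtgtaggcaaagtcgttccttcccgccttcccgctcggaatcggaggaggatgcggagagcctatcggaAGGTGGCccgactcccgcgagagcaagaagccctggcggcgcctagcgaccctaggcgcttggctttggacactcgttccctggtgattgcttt
Cdkn2a: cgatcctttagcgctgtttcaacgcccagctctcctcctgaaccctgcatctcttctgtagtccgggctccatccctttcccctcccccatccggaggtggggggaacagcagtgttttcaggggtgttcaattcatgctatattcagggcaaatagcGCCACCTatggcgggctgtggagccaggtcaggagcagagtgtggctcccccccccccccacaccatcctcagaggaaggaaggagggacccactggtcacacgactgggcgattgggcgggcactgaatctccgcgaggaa
Tert: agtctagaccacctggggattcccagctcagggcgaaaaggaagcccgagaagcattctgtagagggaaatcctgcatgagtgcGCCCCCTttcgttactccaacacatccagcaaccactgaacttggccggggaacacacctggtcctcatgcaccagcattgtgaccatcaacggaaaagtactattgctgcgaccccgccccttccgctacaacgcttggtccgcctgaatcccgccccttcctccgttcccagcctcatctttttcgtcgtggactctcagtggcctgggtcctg

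The word AGGNGGC was found on either strand in 5 of the 8 promoter windows of these genes and in 29.4% of 32851 mouse promoter windows of the same length. The longer word CNAGNNGGC, a core of the CTCF motif, was in none of the 8 and in 20.8% of all. A match is a description and not evidence of binding, and the absence of these letters says nothing of the protein. At the downstream Wrap53 start the match AGGGGGC lay 197 bp before the start and 27 bp below the centre of the strongest site. A further match, AGGTGGC, lay 44 bp before the start. At Cdkn2a the match lay 92 bp before the downstream start, and at Tert 166 bp before the start. The nearest site centres were 27 bp and 22 bp away from these.

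The strongest site was at the downstream start of Wrap53. Its centre, chr11:69579470, lay 221 bp upstream of that start, 780 bp inside the annotated end of Wrap53 and 878 bp outside the nearer end of Trp53, so it is a gene-end site of both. Within 100 bp of the centre it held 42 tags in lung (30.3 to 56.8), 32 in brain (21.9 to 45.2), 12 in liver (6.2 to 21) and 13 in kidney (6.92 to 22.2). In kidney the site inside Tert held nearly as many, 12. The Wrap53 site held 337 tags with 2,700,000 liver cells (302 to 375), 19 with 270,000 (11.4 to 29.7) and none with 27,000. Tags were thus listed in 6 of 7 libraries, and among all 88402 sites it ranked above 98.5% in kidney and above 99.2 to 99.6% in the other 5. It was also the only one of the 33 with a peak pair of its own in brain, kidney and 270,000 liver cells.

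Per 1,000,000 listed tags this Wrap53 site had 60.7 in lung (43.8 to 82.1), 31.0 in brain (21.2 to 43.7), 22.8 in liver (11.8 to 39.8) and 7.95 in kidney (4.23 to 13.6). The lung interval did not overlap that of the other organs, and the kidney interval did not overlap that of brain. Set against the tags at all sites of each library, both gene-end sites here together were 1.3-fold higher in lung than in brain (0.811 to 2.1), 2.8-fold higher than in kidney (1.48 to 5.69) and 1.53-fold higher than in liver (0.79 to 3.19), of which only the interval against kidney excluded 1. Brain was 2.15-fold higher than kidney on this scale (1.11 to 4.43). Kidney had the most tags of the organs and also the largest share of peaks with all tags at 1 position, 91.5% against 76.3 to 83.2% in the other organs, and the part of this in the order was not tested. Of the 13 kidney tags here, 10 were in peaks spread over more than 1 position, as were 30 of 42 in lung, 22 of 32 in brain, 12 of 12 in liver, 332 of 337 with 2,700,000 cells and 12 of 19 with 270,000.

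The stops at the Wrap53 start were best resolved with 2,700,000 liver cells. The highest forward peak held 77 tags at 39 bp below the centre, and the highest reverse peak 107 tags at 40 bp above it. Further reverse peaks of 36 and 26 tags lay between these, and a second forward peak of 24 tags lay outside the first. With 270,000 cells the highest forward peak, of 4 tags, lay 37 bp below the centre. The highest reverse peak there, of 7 tags at 1 position, lay 17 bp below the centre, and the next, of 6 tags, 41 bp above it. In lung the highest forward peak, of 14 tags, lay 55 bp below, and in kidney that of 5 tags lay 37 bp below. In brain the peaks with most tags were forward peaks above the centre, unlike the forward peaks named for the other libraries. They held 7 tags, at 1 position, 20 bp above it and 6 tags 3 bp above it. With so few tags in the organs the order of the smaller peaks is not resolved.

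**Figure D1:**
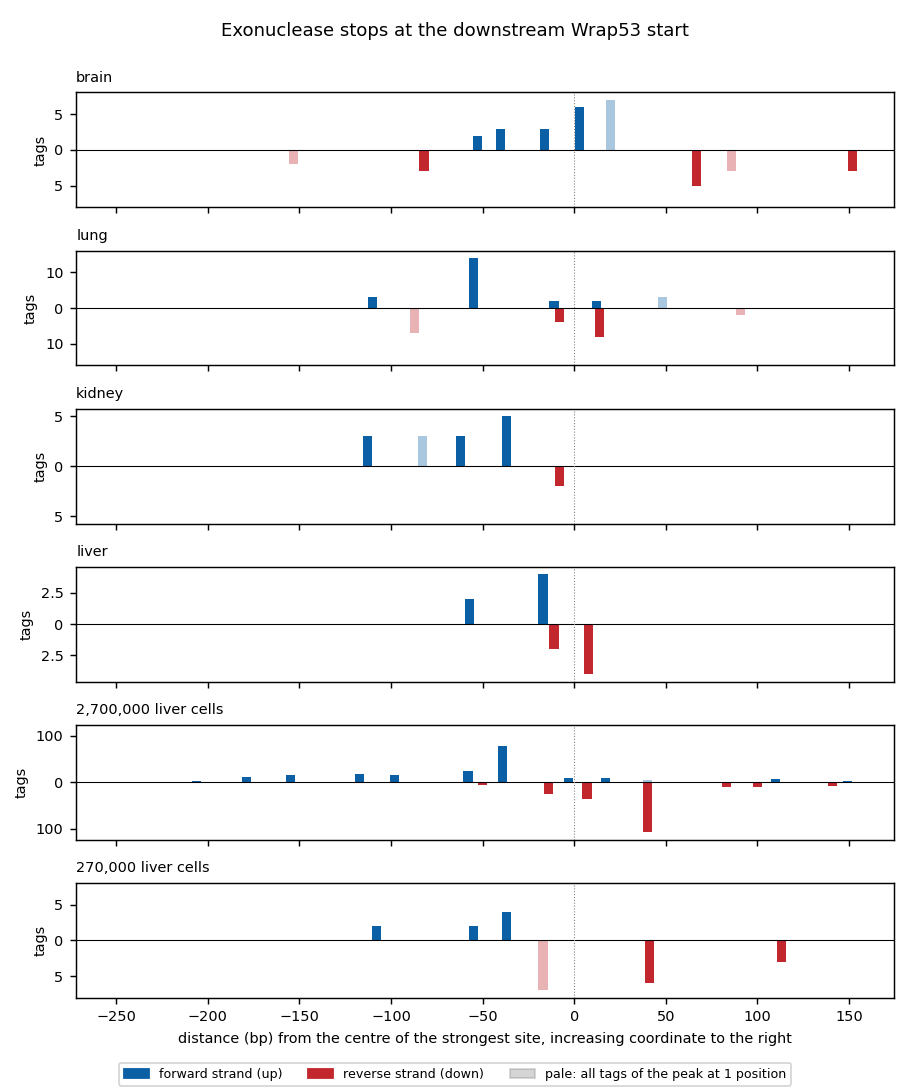
Exonuclease stops around the strongest site at the downstream Wrap53 start in 6 libraries, with tags per peak (vertical axis, own scale for each library) against the distance in bp from the site centre. Blue bars above the line are forward-strand peaks, red bars below are reverse-strand peaks, and pale bars are peaks with all tags at 1 position. With 2,700,000 liver cells the forward peak of 77 tags and the reverse peak of 107 tags stand 39 and 40 bp from the centre.

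A second gene-end site of Wrap53 and Trp53, at chr11:69579595, lay 346 bp upstream of the same start, and its window overlaps that of the first. It held 11 tags in brain, 5 in lung, 9 with 270,000 liver cells and 152 with 2,700,000, the last of which includes the reverse peak of 107 tags. The lung tags were peaks of 3 and 2 tags that also lie in the first window. Brain peaks of 5 and 3 tags and the peak of 6 tags with 270,000 cells lie in both windows too. Neither kidney nor liver listed tags at the second site. At the start of Trp53 itself and at the upstream start of Wrap53, which diverge from the same stretch, no site was found. The promoter window of Trp53 held 2 tags with 2,700,000 cells and that of the upstream Wrap53 start 5, with none in any other library. The promoter window of the downstream Wrap53 start held 254 tags in the same library.

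The remaining 4 sites of this locus were weaker. One inside Trp53, 1735 bp from its end, had 26 tags with 2,700,000 liver cells and none elsewhere. One inside Wrap53 at chr11:69575428 had 4 in brain and 19 with 2,700,000 cells. A pair of sites inside Dnah2, the neighbouring dynein gene, had 27 and 15 with 2,700,000 cells and up to 9 in the other libraries. At the opposite ends of both genes no site was found, and the highest sum there was 5 tags, in kidney, in a peak of 1 position.

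At the INK4 and ARF locus 4 sites were found, and none held tags in liver tissue. The site closest to a gene end was at chr4:89310640, inside Cdkn2b and 392 bp downstream of its start, where Gm12610 is also annotated. It held 48 tags with 2,700,000 liver cells (35.4 to 63.6), 7 with 270,000 (2.81 to 14.4) and 7 in lung (2.81 to 14.4), and brain, kidney, liver and 27,000 cells listed none. The 7 lung tags were a single peak at 1 position, and both peaks with 270,000 cells were of that kind. With 2,700,000 cells 9 peaks made up the site, with the highest forward peak of 12 tags 20 bp below the centre and the highest reverse peak of 10 tags 20 bp above it. The promoter window of Cdkn2b itself held no tags in any library, so the signal was downstream of the start.

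A pair of sites with overlapping windows lay 62 and 126 bp upstream of the downstream start of Cdkn2a, the start of the p16INK4a transcript. They held 13 and 25 tags with 2,700,000 liver cells. In kidney both windows contained the same peak of 6 tags, and in brain the farther one contained a peak of 2 tags, each at 1 position. Lung, liver, 270,000 and 27,000 cells listed none. These are ordinary sites by level, with fewer tags in 25.6 and 43.0% of all sites in the library of 2,700,000 cells. The upstream start of Cdkn2a, that of p19ARF, had no site and no tags in its promoter window in any library. Within 1 kb of it, lung and the libraries of 2,700,000 and 270,000 cells each listed 1 peak of 2 tags. The fourth site, 2167 bp upstream of Cdkn2b, held 4 tags with 2,700,000 cells and none elsewhere.

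**Figure D2:**
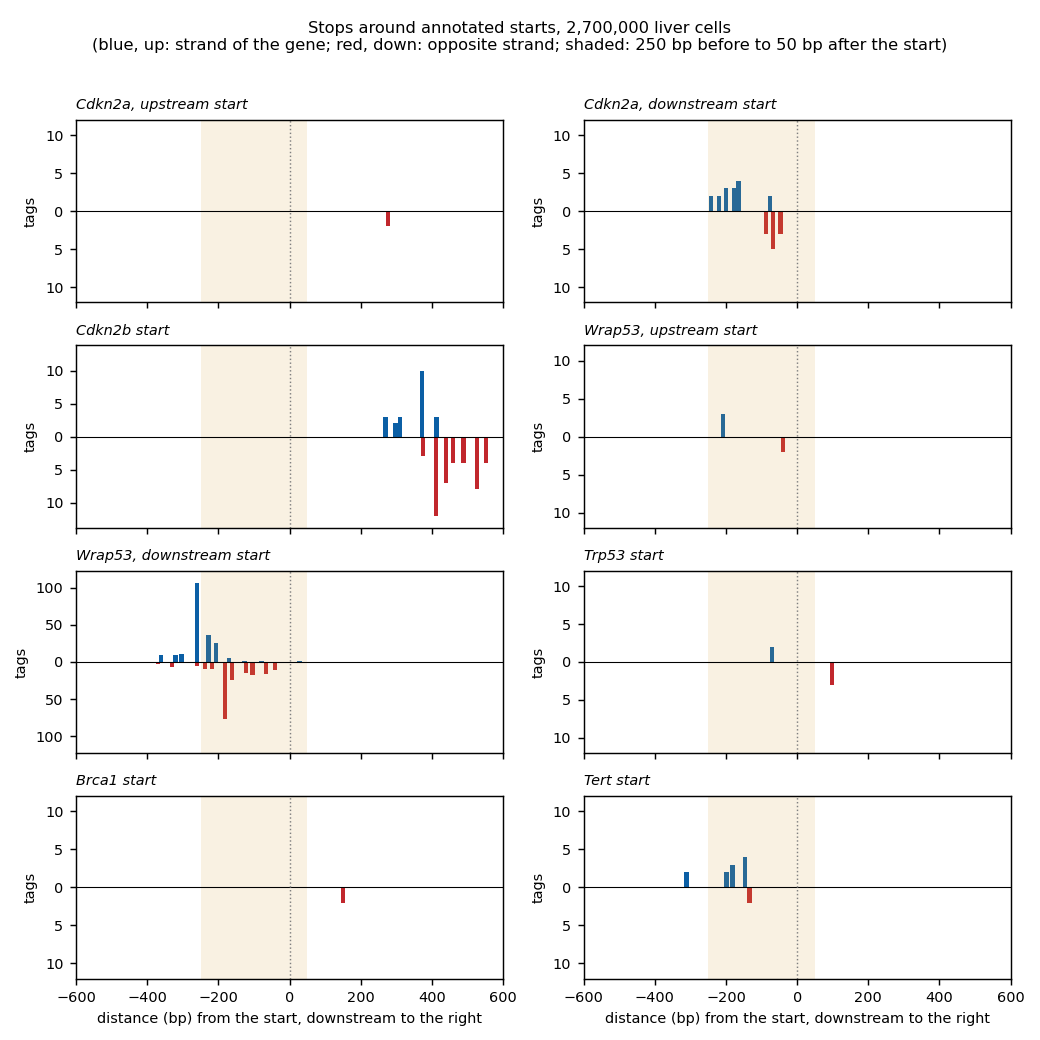
Exonuclease stops around the annotated starts with 2,700,000 liver cells, with tags per peak against distance in bp from the start and the direction of transcription to the right. Blue bars above the line are on the strand of the gene, red bars below on the opposite strand, and the shaded band runs from 250 bp before to 50 bp after the start. Only the downstream start of Wrap53 (scale to 100 tags), the downstream start of Cdkn2a, the start of Tert and the body of Cdkn2b beyond its start show clusters of stops.

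At Rb1 all 9 sites were inside the gene, none was within 1 kb of an end, and none was in the 20 kb on either side. The gene covers 133 kb of the 173 kb searched. Cdkn2a had no gene-end site either, and 22.9% of all coding genes had one. At the lower end of Rb1 no peak was listed in any library, and at its upper end the only peak was 1 of 2 tags with 2,700,000 cells. The strongest site inside, at chr14:73303380 and 22571 bp from the upper end, held 16 tags in lung, 6 in brain, 6 in kidney, 86 with 2,700,000 liver cells and 5 with 270,000. Liver tissue and 27,000 cells listed none. Peaks spread over more than 1 position held 3 of the 16 lung tags, 4 of 6 in brain and 2 of 5 with 270,000 cells. All 6 kidney tags were in peaks of 1 position. With the Wrap53 site it was 1 of 2 among the 33 with tags in at least 5 of 7 libraries, where 12% of all 88402 sites reach that number.

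A pair of Rb1 sites, at chr14:73266324 and chr14:73266380, each had 83 tags with 2,700,000 cells in windows that overlap, with 6 tags in lung and 2 with 270,000 cells. The highest peaks there were a forward peak of 29 tags and a reverse peak of 26 tags, 21 bp below and 22 bp above the second centre. The remaining 6 sites had 0 to 27 tags with 2,700,000 cells. The one with 0, at chr14:73270321, was found in the liver library only, with 4 tags. These were a forward and a reverse peak of 2 tags each, the lowest number listed, both at 1 position. This was the single site of the 33 not seen in the library of 2,700,000 liver cells.

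Brca1 had the most sites, 10 over 103 kb, but most of them outside the gene. There were 3 inside Brca1, with 12, 21 and 15 tags with 2,700,000 liver cells and none in any other library. The gene-end site at chr11:101552935 lay 980 bp upstream of the start of Brca1 and 281 bp downstream of the start of Nbr1, the autophagy receptor gene next to it. It was among the weakest, with 4 tags with 2,700,000 cells and 2 in brain. The promoter window of Brca1 held no tags in any library. The strongest site of the locus, at chr11:101562643, lay inside Nbr1 and held 2 tags in brain, 14 in lung, 81 with 2,700,000 liver cells and 4 with 270,000. Kidney and liver listed none. All 14 lung tags and all 4 with 270,000 cells were in peaks of 1 position. A peak of 7 tags at 1 position was listed with 27,000 cells 105 bp from its centre, just outside the 200 bp window. The other 5 flanking sites held 5 to 33 tags with 2,700,000 cells, and a pair of them with overlapping windows contained the same brain peak of 2 tags.

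Tert had 4 sites, 1 of each kind of position and a further flanking one. The gene-end site, 141 bp upstream of the start, held 11 tags with 2,700,000 liver cells, 2 with 270,000 and 2 in kidney. It was a narrow pair, with 13 bp between its stops, the shortest of the 33. Its 4 peaks with 2,700,000 cells held 2 to 4 tags each. The site inside Tert, at chr13:73646836, held 7 tags in brain, 12 in kidney and 26 with 2,700,000 cells, and lung, liver and 270,000 cells listed none. Of the 12 kidney tags, 9 were in peaks of 1 position. The flanking sites, 1 of them 213 bp from an end of Clptm1l, held 25 and 27 tags with 2,700,000 cells and at most 2 in any other library.

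**Figure D3:**
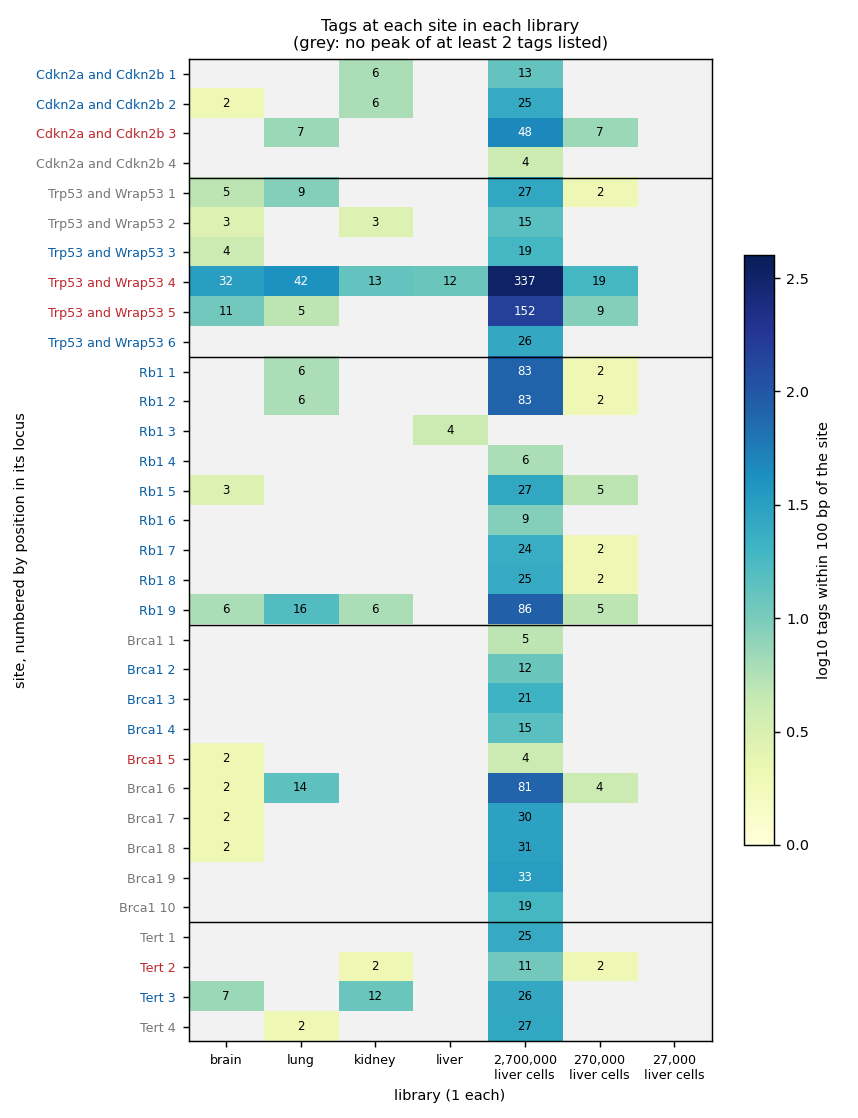
Tags within 100 bp of each of the 33 sites (rows, numbered by position within the locus) in each of the 7 libraries (columns), with colour on a log10 scale and the count printed in each cell. Label colours give gene-end (red), inside the gene (blue) and flanking (grey) sites, and grey cells had no listed peak of at least 2 tags. The row of the Wrap53 site with 337 tags is filled in 6 libraries, and the column of 27,000 cells is empty.

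Across libraries, brain had tags at 13 of the 33 sites, lung at 9, kidney at 7 and liver at 2. The shares were 39.4% (24.7 to 56.3), 27.3% (15.1 to 44.2), 21.2% (10.7 to 37.8) and 6.06% (1.68 to 19.6), against 37.3%, 28.6%, 27% and 14.9% of all 88402 sites. With 2,700,000 liver cells 32 of 33 sites had tags (97%, 84.7 to 99.5), with 270,000 cells 12 (36.4%, 22.2 to 53.4) and with 27,000 cells 0 of 33, where 97.5%, 28% and 1.11% of all sites did. The share with 2,700,000 cells was fixed by the definition of a site and is no result. That library gave 156154 peak pairs, against 391 to 12167 in the others, and had a pair at 32 of the 33 sites. The shares over all sites lay within each of these intervals, so the 33 sites did not stand apart from sites in general by this measure. The intervals take the 33 sites as independent. Some have overlapping windows that contain the same peak, so the intervals are too narrow. When the 33 windows were moved by 5 kb, tags were found in 1 of them in kidney, in 5 with 2,700,000 cells and in none in the other libraries. Of the 33 sites, 31 had a peak pair in 1 library alone, as did 76164 of all 88402. Tags in 1 library alone were found at 12 of the 33, 36.4% against 41.7% of all sites.

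**Figure D4:**
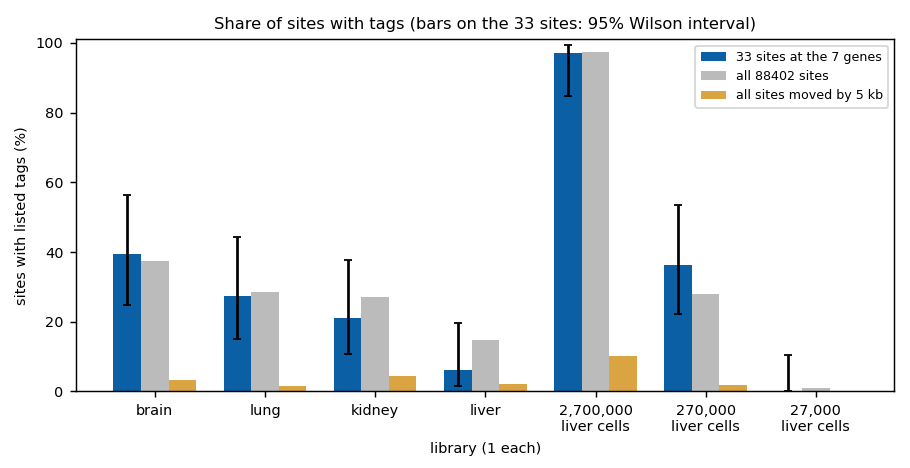
Share of sites with listed tags in each library (per cent), for the 33 sites at the 7 genes (blue), all 88402 sites (grey) and all sites moved by 5 kb (yellow). Bars on the blue columns are 95% Wilson intervals, and the grey column lies within the interval in every library.

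The 33 sites were of ordinary strength. The median with 2,700,000 liver cells was 25 tags (range 0 to 337), and over all sites it was 31. The sites with at least 72 tags form the upper 22338 of all 88402, and 6 of the 33 were among them. These were both gene-end sites of Wrap53, the 3 strongest of Rb1 and the site in Nbr1. Of the 6, 4 had tags in brain, 6 in lung, 2 in kidney, 1 in liver, 6 with 270,000 cells and none with 27,000. Among all these 22338 sites the shares were 69.9%, 56.4%, 49.1%, 31.4%, 64% and 2.99%. Since windows overlap in pairs at Wrap53 and Rb1, these 6 are 4 separate places.

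Summed over the 33 sites with each peak counted once, lung had 96 tags, brain 71, kidney 42 and liver 16. There were 1068 with 2,700,000 liver cells, 51 with 270,000 and 0 with 27,000. Libraries differ in the share of their tags that lies at any site, from 11.9% in kidney to 59.0% with 2,700,000 cells, the library that gave most of the peak pairs. Per 1,000,000 tags at all 88402 sites, lung had 427 at these genes (346 to 522), brain 292 (228 to 368), kidney 216 (155 to 292), and liver the fewest at 163 (93.2 to 265). Lung exceeded brain 1.47-fold (1.07 to 2.02), kidney 1.98-fold (1.37 to 2.92) and liver 2.62-fold (1.53 to 4.77), intervals that cover counting error and not the spread between animals. Brain exceeded liver 1.79-fold (1.03 to 3.3), and brain and kidney could not be separated, at 1.35-fold (0.91 to 2.03). Without peaks of 1 position the sums were 48 for brain and 41 for lung, with 13 for kidney and 12 for liver, so that lung no longer exceeded brain in tags.

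The 2 gene-end sites of Wrap53 and Trp53 carried much of these sums, with 75% of the tags in liver, 49.3% in brain, 43.8% in lung, 31.0% in kidney and 33.3% with 2,700,000 cells. Leaving both out, lung exceeded brain 1.63-fold (1.05 to 2.55) and liver 5.9-fold (2.18 to 22.4), the latter resting on 4 liver tags. These folds rest on peaks of 1 position. Of the tags in other peaks, each counted at its nearest site, the 2 sites held 30 and 0 of 41 in lung. They held 17 and 8 of 48 in brain and 12 and 0 of 12 in liver. Without peaks of 1 position lung thus had fewer tags than brain outside these 2 sites, and liver had none.

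In the cell titration the tags at the 33 sites went from 1068 to 51 between 2,700,000 and 270,000 cells, a ratio of 20.9 (15.8 to 28.3). Over all sites the ratio was 23.1 and over all listed tags 10.3. The interval includes the ratio over all sites and lies above that of listed tags. However, 32 of the 33 sites had a peak pair with 2,700,000 cells and 1 with 270,000. The choice of sites thus favours the larger library, and the difference from the ratio of listed tags cannot be told apart from that choice. With 27,000 cells only 3 peaks with 14 tags were listed in all 5 loci, all of 1 position and none at a site. The total of 35594 tags in that library limits what can be said of single sites, and binding at these genes was not detectable at this depth.

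Sites close to gene ends were denser than other sites. Gene-end sites, within 1 kb of either end of a listed gene, numbered 5 over 26.1 kb, or 19.1 per 100 kb. There were 17 inside the genes over 260 kb, 6.54 per 100 kb, and 11 flanking over 200 kb, 5.51 per 100 kb. The 5 gene-end sites had a median of 48 tags with 2,700,000 cells (range 4 to 337), sites inside genes 24 (0 to 86) and flanking sites 27 (4 to 81). With 5 sites at 4 starts this is a description only. Around all 21883 coding genes the densities were 9.02, 3.84 and 5.43 per 100 kb at gene ends, inside genes and flanking, so that gene ends were the densest class there too. The classes differ, since those were set against every coding gene and the ones above against the 7 listed genes only. Flanking sites here can lie inside another gene, such as Nbr1 or Dnah2, so the levels are not like for like. Of the 7 genes, 5 had a gene-end site, where 22.9% of 21883 coding genes did, and Trp53 and Wrap53 count the same sites. All 7 had a site within 20 kb, as did 84.6% of coding genes. Per 100 kb the genes stood between the 45.0th percentile of coding genes, for Cdkn2b, and the 78.5th, for Wrap53.

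**Figure D5:**
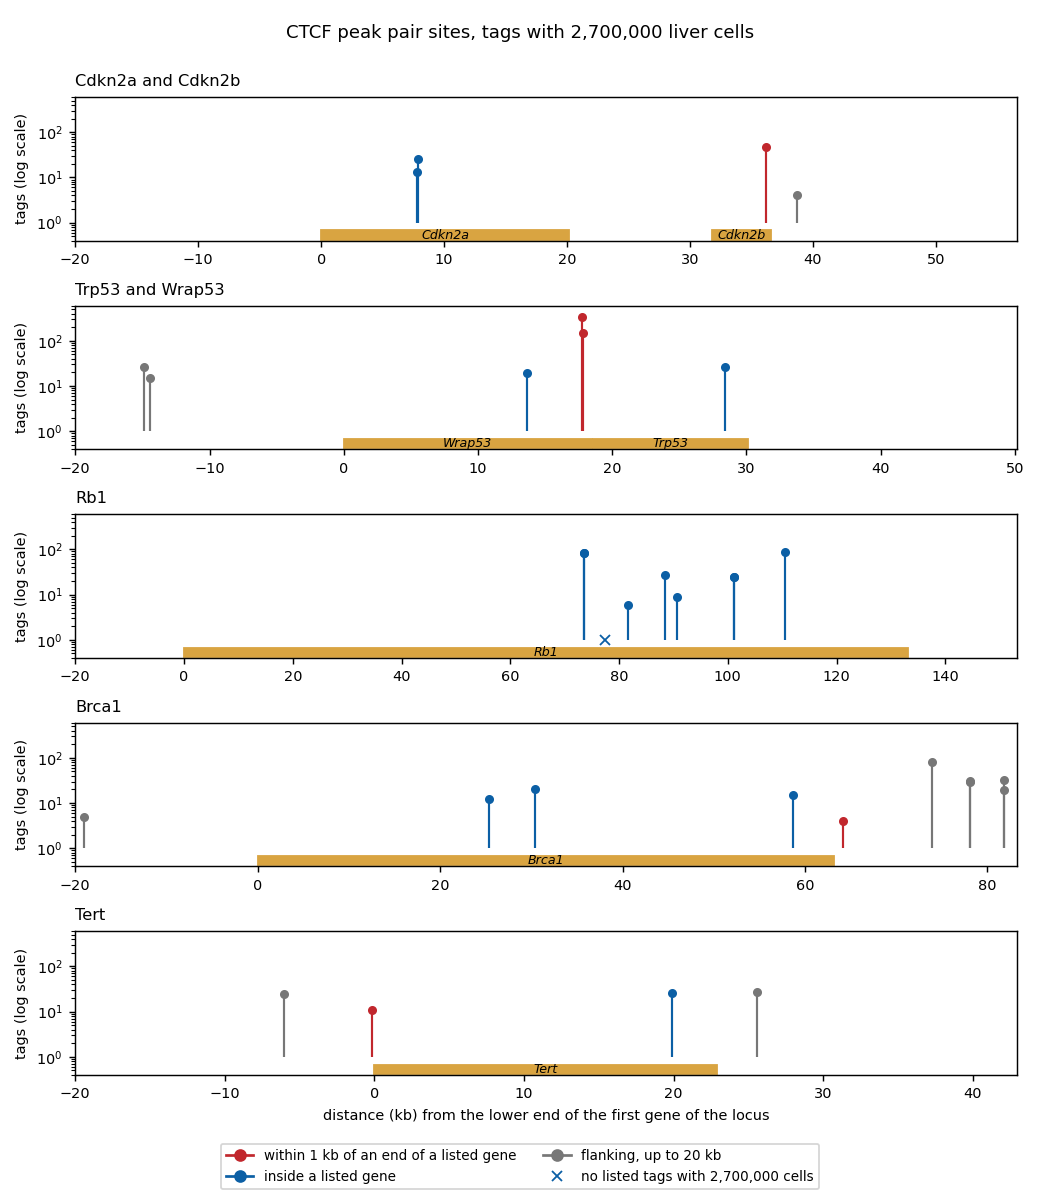
Position and strength of the sites at the 5 loci, with tags with 2,700,000 liver cells on a log axis against distance in kb from the lower end of the first gene. Lines are sites, coloured by position relative to the genes, orange bars are the genes, and the cross is the Rb1 site without tags in that library. The tallest lines are at the border of Wrap53 and Trp53, and the Rb1 sites all lie inside the gene.

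Peaks away from the sites had all tags at 1 position more often than peaks at sites did. Over the 5 loci brain listed 86 peaks, of which 23 were at sites, and of the 63 others 60 had all tags at 1 position. In kidney 72 of 76 peaks away from sites were of that kind, in lung 19 of 21, in liver 26 of 30 and with 270,000 cells 29 of 31. With 2,700,000 cells the number was 104 of 238, so most peaks there were spread over more than 1 position. Over all listed peaks the share at 1 position was 83.2% in brain, 91.5% in kidney, 83.1% in lung and 76.3% in liver. It was 76.0% with 270,000 cells and 33.1% with 2,700,000. At sites the shares were lower, with 7 of 23 in brain, 8 of 12 in kidney, 9 of 17 in lung, 2 of 6 in liver, 9 of 16 with 270,000 cells and 9 of 164 with 2,700,000. The highest peak away from a site held 17 tags, with 2,700,000 cells beside the Wrap53 start, and in the other libraries 3 to 12. With 2,700,000 cells 62.1% of the tags over the loci were at sites, and in kidney 14.4%. With 2,700,000 cells 68 of 87 forward peaks at the sites lay below the site centre and 61 of 77 reverse peaks above it. The pairing requires this arrangement of the peaks it uses, and 32 of the 33 sites had a pair in that library. Forward peaks below the centre were 7 of 11 in brain, 5 of 9 in lung and 6 of 7 in kidney. They were 3 of 3 in liver and 8 of 9 with 270,000 cells. Reverse peaks above it were 5 of 12, 3 of 8, 3 of 5, 2 of 3 and 3 of 7 in the same order. The reverse side was thus not clear outside the library of 2,700,000 cells.

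The other genes of the same pathways were looked at by a list of 37, all of which were found in the annotation. A site within 20 kb was found for 36, all but Dkc1, which encodes dyskerin, and a gene-end site for 9. Over all coding genes these shares were 84.6% and 22.9%, so the 9 of 37 are close to genes in general, and the counts by group are given as a description. Among 11 genes of the INK4, cyclin D and Rb group, gene-end sites were at Cdk6, a kinase that p16INK4a inhibits, Cdkn2d, a further INK4 inhibitor, and Rbl1, a relative of Rb1. Among 9 of the p53 group they were at Atm and Chek2, kinases of the DNA damage response, and Mdm2. The strongest of Mdm2 held 126 tags with 2,700,000 liver cells, 9 each in brain and lung, and 4 in kidney. None of 5 genes of the BRCA group had a gene-end site. Among 12 genes of telomeres and telomerase they were at Gar1 and Nop10, subunits of the telomerase particle, and Tinf2, a subunit of shelterin. The strongest of Nop10 held 18 tags in brain, 12 in kidney, 2 in liver and 87 with 2,700,000 cells.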

How the data were processed

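CTCF ChIP-exo 5.0 was measured in 7 mouse libraries, 1 per group. The authors sequenced 2 × 40 bp reads and removed non-unique alignments and PCR duplicates. The submitters' processing notes name BWA 0.7.9a, bcl2fastq 2.16 and mm10. The authors deposited peaks of 21 bp with a count of tags, not normalized, and the standard deviation of tag positions in bp. The deposited score for this deviation was used to mark peaks with all tags at 1 position.

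Pairs, merging and windows of 200 bp are as stated in the results. In each library every peak was used in 1 pair at most, those with most tags first. Sites within 1 kb of a gene end were called gene-end sites. Positions, promoters and starts were those of RefSeq (GRCm38.p6). The 23 dense bins of 10 kb, with 20 or more peaks in 6 libraries each, held none of the 33 sites. Sites printed in full were all gene-end sites, the 3 with most tags per gene and those with tags in at least 5 libraries. Others were chosen after their values were seen. The genes, the pathway list and the named sites were chosen with earlier results of these data known. No test was possible with 1 library per group, so shares over all sites or all coding genes stand beside the main counts. Pairing was tested on simulated data. Alternatives changed the distances, the minimum of tags, the window and the merging. Scripts ran under Python 3.11.15 with scipy 1.17.1, pandas 2.3.3, numpy 2.4.6, matplotlib 3.10.9 and statsmodels 0.14.6. Motifs outside promoter windows were not analysed here.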

Additional observations from a re-analysis of the deposited data

How the results depend on the processing

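Of 61 values for the number of sites and the sites with tags per library, 48 stayed within 1.5 times the main value and 13 did not. The 33 sites became 58 within 50 kb of the genes, 10 with peaks of at least 5 tags and 54 with pairs merged within 20 bp. Sites with tags became 7 in brain with peaks of at least 3 tags. They became 1 in liver and 6 with 270,000 liver cells by the same minimum. Without peaks of 1 position they became 5 in lung, 2 in kidney, 1 in liver and 5 with 270,000 cells. In windows of 400 bp 1 site had tags with 27,000 cells. Without the Trp53 and Wrap53 gene-end sites 1 site remained in liver, and gene-end sites within 0.5 kb numbered 2. Merging within 200 bp, so that no windows overlap, gave 27 sites. That merging and the removal of the Trp53 and Wrap53 sites were chosen after seeing the data. The order of brain and lung depended on the setting. Brain had tags at more sites than lung (13 against 9), but at fewer with peaks of at least 3 tags (7 against 8), and lung had more summed tags than brain (96 against 71), but fewer without peaks of 1 position (41 against 48). The cause was not tested. The tags of single named sites moved in 23 of 133 values with windows of 100 bp, in 16 with 400 bp and in 10 when peaks of 1 position counted as 1 tag. No paired analysis was possible because each condition had 1 library, and no library could be left out of its group for the same reason. Depth limits the organ values, since outside the Wrap53 start 3 of the 33 sites held more than 10 tags in any organ.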
